A study of Mus musculus with 12 samples.

Results

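The 10 genes described here, Axin2, Lef1, Tcf7, Sp5, Nkd1, T, Cdx1, Notum, Rnf43 and Znrf3, are transcriptional targets of the Wnt/beta-catenin pathway. They were listed by name and found by Ensembl ID, with symbols and positions from the GENCODE M21 annotation (GRCm38), and they are 10 of 43346 gene IDs in the expression table. All 10 are protein coding, and all 10 passed the filter on low counts. RNA sequencing covered 12 libraries of mouse embryonic stem cells in 4 groups of 3. B6 is the inbred strain C57BL/6J, and D2 is the inbred strain DBA/2J. The remaining groups are congenic lines made both ways, with a segment of chromosome 13 from the opposite strain. B6-13D2, whose strain label is B6.D2-(rs30079041-rs51756099)/Bakr, has the D2 segment and is otherwise B6. D2-13B6 has the B6 segment and is otherwise D2; its sample labels name the strain D2.B6-(rs29224292-rs13469455)/Bakr, whereas the series text ends that segment at rs51756099. Cells of every group grew in DMEM with 15% serum, LIF, 1 µM PD0325901, which inhibits MEK, and 3 µM CHIR99021, which inhibits GSK3. No library came from cells without CHIR99021, so the levels are those in a stimulated pathway, and a response to the inhibitor could not be measured. Per the protocol, the 3 libraries of a group are separate cultures of a single cell line, but the titles call all 12 technical replicates, and those of B6 name more than 1 line. The p-values therefore measure the spread between these libraries, which may be technical. With so few lines per strain, strain and cell line cannot be told apart.

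When Wnt ligands are absent, a destruction complex built on Axin and Apc lets GSK3 phosphorylate beta-catenin, which is then degraded. A Wnt signal, or inhibition of GSK3, lets beta-catenin accumulate, enter the nucleus and join DNA-bound TCF/LEF proteins at target genes. Many targets feed back on the pathway as inhibitors, and others are transcription factors of early embryonic patterning. In mouse embryonic stem cells, GSK3 inhibition supports self-renewal, in large part by relieving repression by Tcf7l1.

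TCF/LEF proteins recognise a short core motif, and 3 promoter windows are shown because they hold it in genes that differed between the lines. The letters CTTTGA, or TCAAAG on the other strand, were searched in the 250 bases before each RefSeq gene start (GRCm38.p6); no other motif was searched. They occur in 13.8% of 32851 such windows. For the 10 target genes the table holds 12 windows of 7 genes (Axin2, Lef1, Tcf7, Sp5, Nkd1, T and Rnf43), and windows of Sp5, T and Lef1 hold a match. A match is a description of the letters and not a binding site. The Sp5 window is chr2:70474673-70474922 (plus strand), with matches 204 and 104 bases before the start. The T window is chr17:8434173-8434422 (plus strand), with a match 234 bases before the start. The Lef1 window, at 1 of its 4 starts, is chr3:131156044-131156293 (plus strand), with matches 180 and 120 bases before that start. This start lies well inside the gene, which begins at 131110471, and the windows of the other Lef1 starts hold no match. Each sequence reads 5′ to 3′ and ends at the base before the start, and the capitals mark the matches.
Sp5: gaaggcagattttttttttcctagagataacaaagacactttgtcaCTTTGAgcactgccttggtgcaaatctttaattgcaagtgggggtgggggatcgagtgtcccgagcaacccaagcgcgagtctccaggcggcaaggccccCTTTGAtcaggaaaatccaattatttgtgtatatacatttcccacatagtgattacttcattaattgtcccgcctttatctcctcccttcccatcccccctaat
Lef1: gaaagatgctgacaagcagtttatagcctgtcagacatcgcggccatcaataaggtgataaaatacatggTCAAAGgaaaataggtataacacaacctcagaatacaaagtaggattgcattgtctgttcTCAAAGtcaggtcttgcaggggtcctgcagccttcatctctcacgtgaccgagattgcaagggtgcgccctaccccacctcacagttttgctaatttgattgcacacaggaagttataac
T: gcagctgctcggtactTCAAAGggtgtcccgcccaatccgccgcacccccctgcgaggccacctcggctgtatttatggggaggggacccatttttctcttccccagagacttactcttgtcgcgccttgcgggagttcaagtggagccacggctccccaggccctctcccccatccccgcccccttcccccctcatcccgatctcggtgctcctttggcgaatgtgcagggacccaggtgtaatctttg

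Libraries held 22184196 to 36411799 expected counts, with 22184196 to 36411799 in D2, 23433894 to 24825802 in B6, 25921333 to 29741421 in B6-13D2 and 28430281 to 35251889 in D2-13B6. Some labels disagree with each other. The title of B6 replicate 3 names another line than those of B6 replicates 1 and 2, and for D2 the line in the titles is not the one in the cell line field. In the table, 6 columns, those of congenic libraries, have a prefix that the parental ones do not, so a batch it may record cannot be told apart from the congenic lines. Embryonic stem cell markers (Pou5f1, Sox2, Nanog, Esrrb, Zfp42, Klf4, Utf1 and Tdgf1) were high in every library, with summed levels from 2599 to 2630 CPM (counts scaled to a common library total) in D2 up to 3766 to 3960 CPM in B6-13D2. Fibroblast or feeder markers (Col1a1, Col1a2, Col3a1, Thy1, Dcn, Postn, Lum and Fbn1, none at 0) summed to 14759 to 17599 CPM in D2, 9780 to 10607 in B6, 8094 to 8443 in D2-13B6 and 3215 to 3307 in B6-13D2. Collagen I made up most of that sum (in B6, 6428 CPM ± 348 (SD, n = 3) of Col1a1 and 2617 ± 105 of Col1a2), whereas Dcn (1.37 ± 0.134) and Lum (2.24 ± 0.541) were low. In bulk RNA, fewer cells of a type and less RNA per cell cannot be told apart.

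The target genes did not move as a block. Lef1 separated the backgrounds, with group means in the D2-background lines 3.02-fold to 4.28-fold above those in the B6-background lines. Axin2 was alike in the parental lines, lowest in B6-13D2 and highest in D2-13B6, and Lef1, Notum and T had the same order of group means. Cdx1 and Sp5 had the opposite extremes, lowest in D2-13B6 and highest in B6-13D2. Over the 10 genes, B6-13D2 had the lowest group mean for 6 and the highest for 3, and D2-13B6 had the highest for 5 and the lowest for 2. Levels are CPM on TMM-scaled library sizes. Differences are log2 fold changes from an edgeR quasi-likelihood fit of all 12 libraries, and a gene is said to be called where its Benjamini-Hochberg adjusted p over all 17148 genes tested is under 0.05.

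**Figure D1:**
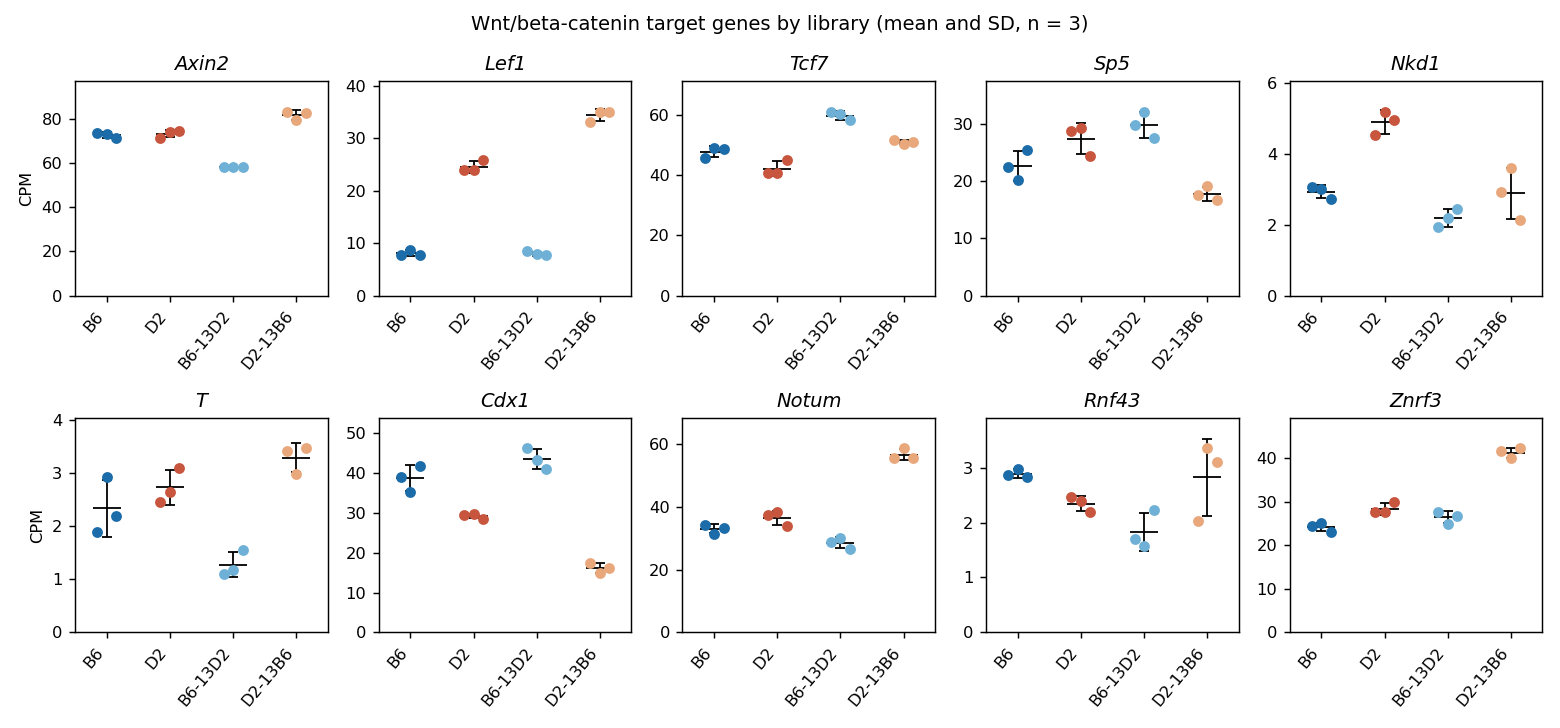
Level of each target gene in CPM (vertical axis, from 0) in the 3 libraries of each line; dots are libraries, and bars give the mean and SD. Lef1 lies between 7.74 and 8.73 CPM in the B6-background libraries and between 23.9 and 35.1 CPM in the D2-background libraries, while Axin2 is lowest in B6-13D2 and highest in D2-13B6.

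Lef1 and Tcf7 encode DNA-binding partners of beta-catenin that are also targets of it. Lef1 (ENSMUSG00000027985, chr3:131110471-131224356, plus strand) stood at 7.82, 8.73 and 7.80 CPM in B6, at 23.9, 24.0 and 25.8 in D2, at 8.48, 7.89 and 7.74 in B6-13D2, and at 33.1, 35.0 and 35.1 in D2-13B6. The B6 and B6-13D2 libraries overlapped, and every D2 library lay above them and below every D2-13B6 library. In D2, Lef1 was 3.02-fold higher than in B6 (1.59 on the log2 scale, SE 0.0675, edgeR adjusted p 1.79e-12). With the B6 segment on the D2 background it rose by a further 0.49 (SE 0.0541, edgeR adjusted p 4.74e-07). With the D2 segment on the B6 background the difference was -0.015 (SE 0.0778, 95% interval -0.18 to 0.15) and was not called. Lef1 therefore had the widest range of the 10 genes, 4.28-fold between D2-13B6 and B6-13D2 group means. On chromosome 3 the median log2 fold change of the 817 other tested genes was 0.058 in D2 against B6, and 97.4% of them lay below Lef1.

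Tcf7 (ENSMUSG00000000782, chr11:52252371-52283014, minus strand) stood at 45.8, 48.9 and 48.7 CPM in B6, at 40.7, 40.6 and 45.0 in D2, at 61.0, 60.1 and 58.1 in B6-13D2, and at 51.5, 50.3 and 51.1 in D2-13B6. The groups did not overlap, with D2 lowest and B6-13D2 highest. Tcf7 was lower in D2 than in B6, with a log2 difference of -0.19 (SE 0.0471, edgeR adjusted p 0.00245). Both congenic lines exceeded the parental line of their background, by 0.32 in B6-13D2 (SE 0.0455, edgeR adjusted p 8.06e-06) and by 0.28 in D2-13B6 (SE 0.0454, edgeR adjusted p 4.27e-05). Of the 10, Tcf7 alone was called higher in both congenic comparisons. B6 and D2-13B6 were neighbours in the order and their difference of 0.093 (SE 0.0454, edgeR adjusted p 0.0872) was not called. Scaling the libraries by RLE size factors made that difference 0.15 and a call (edgeR adjusted p 0.00854).

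Axin2, Nkd1, Notum, Rnf43 and Znrf3 encode feedback inhibitors. Axin2 is a scaffold of the destruction complex and a common readout of beta-catenin activity. Axin2 (ENSMUSG00000000142, chr11:108920349-108950783, plus strand) stood at 73.5, 73.2 and 71.3 CPM in B6, at 71.4, 73.8 and 74.7 in D2, at 58.3, 58.1 and 58.3 in B6-13D2, and at 83.2, 79.3 and 82.6 in D2-13B6. The parental libraries overlapped, and each congenic line lay outside them on opposite sides. D2 against B6 gave a log2 difference of 0.013 (SE 0.0362, 95% interval -0.063 to 0.09, edgeR adjusted p 0.766). The D2 segment on the B6 background went with a 1.25-fold lower level (-0.32, SE 0.0367, edgeR adjusted p 6.98e-07). The B6 segment on the D2 background went with a 1.11-fold higher level (0.16, SE 0.0351, edgeR adjusted p 0.000993). The congenic lines differed from each other 1.40-fold.

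Nkd1, which binds Dishevelled and restrains signalling in the cytoplasm, was among the low genes and had 56 to 187 counts per library. Nkd1 (ENSMUSG00000031661, chr8:88521354-88594884, plus strand) stood at 3.07, 3.02 and 2.74 CPM in B6, at 4.54, 5.20 and 4.96 in D2, at 1.94, 2.21 and 2.45 in B6-13D2, and at 2.93, 3.60 and 2.14 in D2-13B6. The D2 libraries were above all others, and those of D2-13B6 overlapped with both B6 and B6-13D2. Nkd1 was higher in D2 than in B6 by 0.74 (SE 0.166, edgeR adjusted p 0.000968). It fell by 0.75 in D2-13B6 against D2 (SE 0.159, edgeR adjusted p 0.000561). B6-13D2 differed from B6 by -0.42 (SE 0.181, edgeR adjusted p 0.0548), which was not called. The congenic lines differed by 0.41 (SE 0.173, edgeR adjusted p 0.0451). That call was lost in 7 of 12 fits without single libraries, down to 0.21 without D2-13B6 replicate 2 (edgeR adjusted p 0.295). It was also lost, at a difference of about the same size, with DESeq2 (0.40, adjusted p 0.0775) and with a filter at 1 CPM (0.38, edgeR adjusted p 0.0603). The same held with only the libraries compared (0.37, edgeR adjusted p 0.0882) and with replicate number as a block (0.40, edgeR adjusted p 0.0533).

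Notum is a secreted enzyme that inactivates Wnt ligands by removing their lipid. Notum (ENSMUSG00000042988, chr11:120653788-120661175, minus strand) stood at 34.3, 31.4 and 33.1 CPM in B6, at 37.3, 38.2 and 33.8 in D2, at 28.8, 30.1 and 26.6 in B6-13D2, and at 55.4, 58.5 and 55.6 in D2-13B6. The D2-13B6 libraries were above all others, B6-13D2 was below all others, and the lowest D2 library lay within the B6 range. D2-13B6 was 1.55-fold higher than D2 (0.63, SE 0.0537, edgeR adjusted p 1.68e-08). B6-13D2 was lower than B6, with a log2 difference of -0.21 (SE 0.0591, edgeR adjusted p 0.00585); with DESeq2 this was -0.14 and not called (adjusted p 0.0615). D2 was higher than B6 by 0.15 (SE 0.0580, edgeR adjusted p 0.0335), a call lost without B6 replicate 2, B6 replicate 3, D2 replicate 1 or D2 replicate 2 (0.11 to 0.15). Notum was also the sole target gene with counts that were not whole, and its exons overlap those of the antisense gene Notumos by 708 bp and of Myadml2os by 210 bp. Notumos was likewise highest in D2-13B6 at 15.2 CPM ± 0.717 (SD, n = 3) and lowest in B6-13D2 at 5.93 ± 0.200, and had 9.48 ± 0.996 in B6 and 9.43 ± 0.915 in D2. Use of strand in counting is not stated, so reads in the shared exon bases, 708 of 2408 bp of Notum for Notumos, may come from either gene.

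Rnf43 and Znrf3 are related membrane ubiquitin ligases that remove Frizzled receptors from the cell surface and that R-spondins counteract. Rnf43 (ENSMUSG00000034177, chr11:87662722-87735539, plus strand) stood at 2.86, 2.98 and 2.83 CPM in B6, at 2.46, 2.39 and 2.19 in D2, at 1.70, 1.58 and 2.23 in B6-13D2, and at 2.03, 3.35 and 3.10 in D2-13B6. With 47 to 121 counts per library its spread was wide, and D2-13B6 replicate 1 lay below every D2 library and within the range of B6-13D2. Against B6 it was lower in B6-13D2, with a log2 difference of -0.66 (SE 0.198, edgeR adjusted p 0.00828). D2-13B6 against D2 gave 0.26 (SE 0.186, edgeR adjusted p 0.247), which was not called; without D2-13B6 replicate 1 it was 0.46 and called (edgeR adjusted p 0.0367). No pair of neighbours in its order of group means was called.

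Znrf3 (ENSMUSG00000041961, chr11:5276324-5444847, minus strand) stood at 24.5, 25.1 and 23.1 CPM in B6, at 27.6, 27.6 and 30.0 in D2, at 27.7, 25.0 and 26.8 in B6-13D2, and at 41.6, 40.0 and 42.3 in D2-13B6. D2-13B6 stood apart above the other lines, among which the ranges of B6-13D2 overlapped with those of B6 and D2. The gene was 1.46-fold higher in D2-13B6 than in D2 (0.54, SE 0.0524, edgeR adjusted p 8.33e-08) and higher in D2 than in B6 by 0.23 (SE 0.0572, edgeR adjusted p 0.00242). B6-13D2 against B6 gave 0.13 (SE 0.0572, edgeR adjusted p 0.0642), not called, and 0.19 and called with RLE size factors (edgeR adjusted p 0.00766). The order therefore ran B6, B6-13D2, D2 and D2-13B6, and the last step alone was called between neighbours.

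Sp5, T and Cdx1 encode transcription factors of gastrulation and posterior patterning that beta-catenin induces. Sp5, a zinc finger protein that acts on TCF/LEF targets and whose window above holds 2 motif matches, lies at chr2:70474923-70477729, plus strand (ENSMUSG00000075304). Sp5 stood at 22.4, 20.2 and 25.4 CPM in B6, at 28.7, 29.2 and 24.3 in D2, at 29.8, 32.1 and 27.6 in B6-13D2, and at 17.5, 19.1 and 16.7 in D2-13B6. The D2-13B6 libraries were below all others, and those of D2 overlapped with both B6 and B6-13D2. Sp5 rose by 0.40 in B6-13D2 against B6 (SE 0.0853, edgeR adjusted p 0.000617) and fell by 0.63 in D2-13B6 against D2 (SE 0.0851, edgeR adjusted p 5.64e-06). D2 against B6 gave 0.28 (SE 0.0865, edgeR adjusted p 0.0101), a call lost without B6 replicate 2 (0.20, edgeR adjusted p 0.0699) or D2 replicate 2 (0.23, edgeR adjusted p 0.0626).

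T, or brachyury, the T-box factor of the primitive streak, was present at 32 to 125 counts per library (ENSMUSG00000062327, chr17:8434423-8442496, plus strand). It stood at 1.89, 2.94 and 2.19 CPM in B6, at 2.46, 2.64 and 3.10 in D2, at 1.11, 1.17 and 1.55 in B6-13D2, and at 3.43, 2.99 and 3.47 in D2-13B6. The B6-13D2 libraries were below all others, while the remaining neighbours in the order overlapped. T was 1.84-fold lower in B6-13D2 than in B6 (-0.88, SE 0.204, edgeR adjusted p 0.00124). D2-13B6 against D2 gave 0.27 (SE 0.172, 95% interval -0.088 to 0.64, edgeR adjusted p 0.185), and D2 against B6 gave 0.22 (SE 0.186, edgeR adjusted p 0.331). D2-13B6 exceeded B6 by 0.49 (SE 0.178, edgeR adjusted p 0.0251), a call lost without B6 replicate 1 (0.35), B6 replicate 3 (0.44), D2-13B6 replicate 1 (0.46) or D2-13B6 replicate 3 (0.45). Of the primitive streak and mesendoderm list (Mixl1, Eomes, Gsc, Evx1, Mesp1, Tbx6, Foxa2 and Fgf8), 6 of 8 genes were tested, and 2 of them were called in B6-13D2 against B6, 1 in each direction, beside 58.3% of all genes. The median summed level of that list was 14.7 CPM in B6 and 19.1 in B6-13D2.

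Cdx1 (ENSMUSG00000024619, chromosome 18), a homeobox gene of posterior identity, stood at 38.9, 35.3 and 41.7 CPM in B6, at 29.4, 29.6 and 28.5 in D2, at 46.1, 43.3 and 41.0 in B6-13D2, and at 17.3, 14.9 and 16.1 in D2-13B6. B6 and B6-13D2 overlapped at the top, the D2 libraries lay between 28.5 and 29.6, and D2-13B6 was lowest. Cdx1 fell by 0.86 in D2-13B6 against D2, a 1.81-fold lower level (SE 0.0697, edgeR adjusted p 8.49e-09). D2 was lower than B6, with a log2 difference of -0.40 (SE 0.0659, edgeR adjusted p 4.26e-05). B6-13D2 exceeded B6 by 0.17 (SE 0.0632, edgeR adjusted p 0.0283), a call lost without B6 replicate 1 (0.17, edgeR adjusted p 0.0549), B6 replicate 2 (0.11, edgeR adjusted p 0.162) or B6-13D2 replicate 1 (0.13, edgeR adjusted p 0.129). The related gene Cdx2, from a list of other targets, had the reverse order in the parental lines and was higher in D2 than in B6 by 1.55 (SE 0.195, edgeR adjusted p 2.37e-06).

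**Figure D2:**
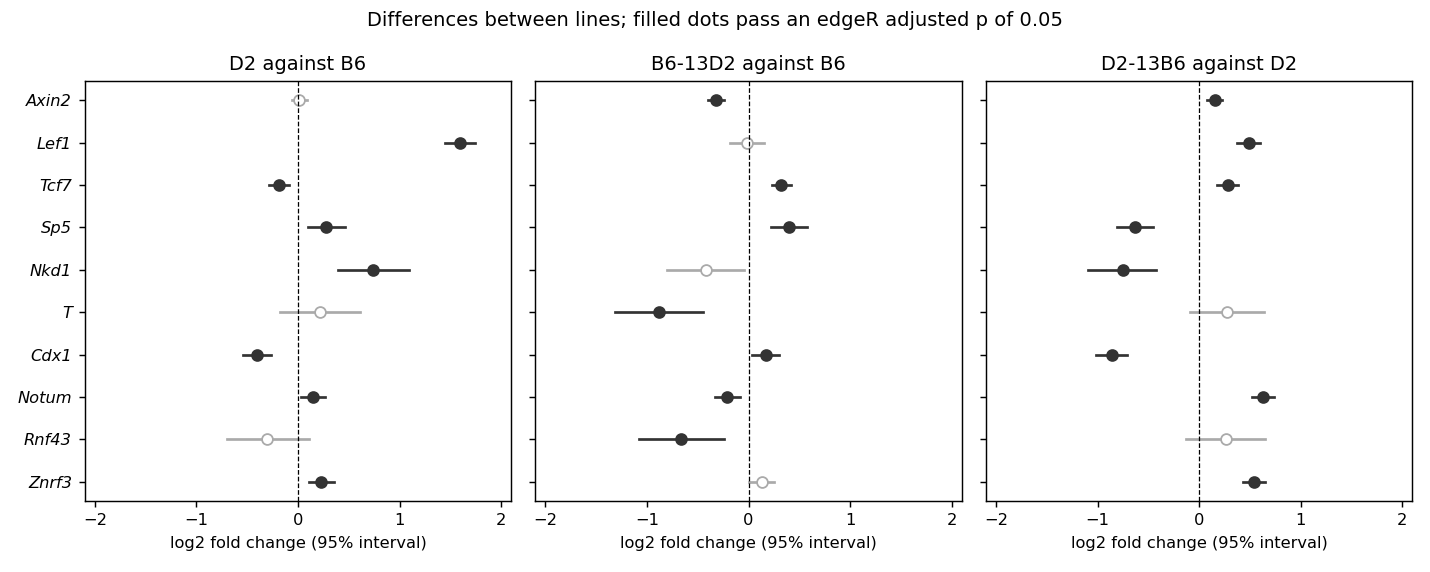
Log2 fold change (horizontal axis, with 95% interval) of the 10 target genes between the parental lines (D2 against B6) and between each congenic line and the parental line of its background; filled dots were called at an edgeR adjusted p under 0.05. Lef1 at 1.59 is the farthest from 0, and of the genes called in both congenic comparisons, Axin2, Sp5, Cdx1 and Notum lie on opposite sides of 0.

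Between the parental lines the background and the segment differ together. Lef1, Nkd1, Sp5, Znrf3 and Notum were higher in D2, and Cdx1 and Tcf7 were lower. These are 7 of 10 called, beside 60.0% of all tested genes, of which 29.8% were called higher and 30.3% lower. The median log2 fold change of the 10 was 0.18, against 0.012 for all genes. All 8 fibroblast or feeder markers were higher in D2 and 6 of 8 embryonic stem cell markers were lower; their part in the target genes' differences was not tested. Without B6 replicate 3, whose title names another line, Notum was no longer called here, and T was no longer called in D2-13B6 against B6 (0.44, edgeR adjusted p 0.0798).

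Setting B6-13D2 beside B6 asks what goes with D2 alleles of the segment when the rest of the genome is B6, along with anything else that separates these lines. Sp5, Tcf7 and Cdx1 were higher in B6-13D2, and T, Rnf43, Axin2 and Notum were lower. That is 7 of 10 called, beside 58.3% of all tested genes (25.4% higher and 32.9% lower). Their median was -0.11, against -0.035 for all genes. In this comparison all 8 fibroblast or feeder markers were lower and 7 of 8 embryonic stem cell markers were higher; their part was not tested.

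Setting D2-13B6 beside D2 asks the same of B6 alleles when the rest of the genome is D2. Notum, Znrf3, Lef1, Tcf7 and Axin2 were higher in D2-13B6, and Cdx1, Nkd1 and Sp5 were lower. These were 8 of 10 called, beside 57.3% of all tested genes (27.6% higher and 29.7% lower), with a median of 0.27 against 0 for all genes. Of the fibroblast or feeder markers 7 of 8 were lower (Dcn was not called), and 5 of 8 embryonic stem cell markers were higher; their part was not tested.

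Comparing the congenic comparisons, which have no library in common, Axin2 and Notum were lower with the D2 segment in B6 cells and higher with the B6 segment on the D2 background, whereas Sp5 and Cdx1 were the reverse. So 4 of 10 were called in both with opposite signs, beside 7.33% of all tested genes. Axin2 and Notum lie on chromosome 11, whose median log2 fold change was 0.39 in D2-13B6 against D2. For these genes the share of all genes is thus not a like background. Cdx1 lost its call in B6-13D2 against B6 without B6 replicate 1, B6 replicate 2 or B6-13D2 replicate 1. Notum lost its call in that comparison with DESeq2. Tcf7 was higher in both, which 12.4% of all genes were, and none of the 10 was lower in both, which 19.8% of all genes were. The 10 genes were listed by name and not by this pattern, but earlier results of these data were known, so the share is a description. The segment is on chromosome 13, and none of the 10 lies there.

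Lines that share the segment and differ in background were set side by side as well. B6-13D2 differed from D2 in 7 of 10, with 2 higher and 5 lower, beside 74.6% of all tested genes (36.7% higher and 38.0% lower); Lef1 (-1.61, SE 0.0653) and Nkd1 (-1.16, SE 0.168) were the farthest. D2-13B6 differed from B6 in 7 of 10, with 5 higher and 2 lower in D2-13B6, beside 59.0% of all tested genes (24.5% higher and 34.6% lower). Lef1 was 4.23-fold higher there (2.08, SE 0.0645), and Cdx1 was 2.40-fold lower (-1.26, SE 0.0687). Between the congenic lines 10 of 10 were called, with 7 higher and 3 lower in D2-13B6, beside 70.2% of all tested genes (38.4% higher and 31.8% lower). This count was 8 to 10 without single libraries and 9 to 10 under the other alternatives, which moved Nkd1, and without D2-13B6 replicate 2 also Rnf43. These comparisons share libraries with those above and repeat part of their differences.

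Axin2, Tcf7, Notum, Rnf43 and Znrf3, or 5 of the 10, lie on chromosome 11, whose genes were higher as a whole in D2-13B6. The median log2 fold change of its 1386 tested genes in D2-13B6 against D2 was 0.39 (1.31-fold), and 58.9% were called higher. On the other autosomes the median of 14950 genes was -0.026, and 24.6% were called higher. Of the chromosome 11 target genes 4 of 5 were called higher there, and of those elsewhere 1 of 5, Lef1, was higher and 3 were lower. Relative to the chromosome's median, Notum stood at 0.24 and Znrf3 at 0.15 above it. Axin2 stood at -0.24, Rnf43 at -0.13 and Tcf7 at -0.11. The medians within 5 Mb of each gene were 0.34 for Axin2, 0.40 for Tcf7, 0.35 for Notum, 0.46 for Rnf43 and 0.40 for Znrf3, so their neighbours were higher as well. The higher levels of Axin2 and Tcf7 in this comparison were thus below the middle of their chromosome, with 31.8% and 39.5% of its other genes below them. In B6-13D2 against B6 the chromosome's median was -0.0011, and Axin2, Notum and Rnf43 were lower and Tcf7 higher without such a shift. The part of the chromosome-wide shift in each gene's difference was not tested.

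**Figure D3:**
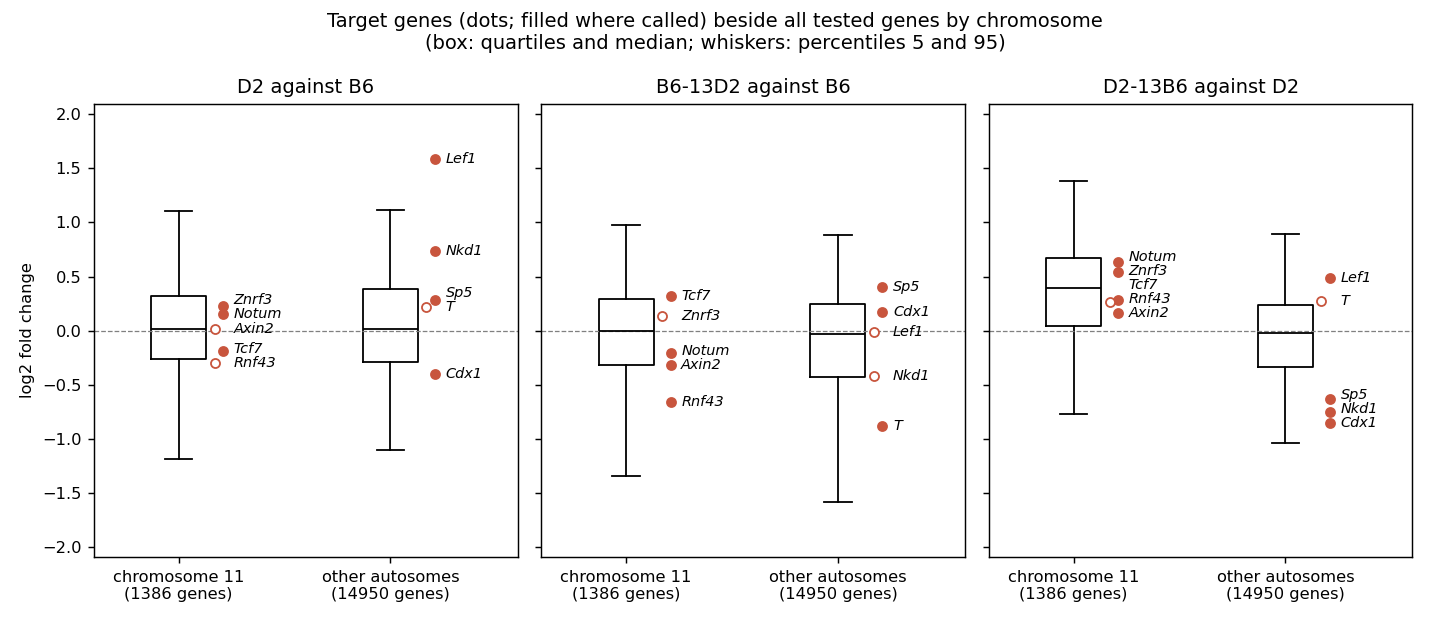
Log2 fold change (vertical axis) of the target genes (dots, filled where called) beside boxes of all tested genes on chromosome 11 and on the other autosomes (box, quartiles and median; whiskers, percentiles 5 and 95) in 3 comparisons. In D2-13B6 against D2 the chromosome 11 box is centred at 0.39, and the dots of its target genes lie between 0.16 and 0.63.

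The effect of the D2 allele on the D2 background minus that on the B6 background was tested in the same fit. This difference equals the parental sum minus the congenic sum and cannot be told apart from anything the congenic lines share. The strain labels bound the segments of the congenic lines by different markers, so both effects may not come from the same interval. It was called for 7 of 10 target genes, beside 64.5% of all tested genes (33.4% above 0 and 31.1% below). Nkd1 (1.18, SE 0.241), Cdx1 (0.69, SE 0.0942) and Axin2 (0.16, SE 0.0508) were above 0. Znrf3 (-0.67, SE 0.0776), Tcf7 (-0.60, SE 0.0643), Lef1 (-0.47, SE 0.0948) and Notum (-0.42, SE 0.0799) were below 0. The median of chromosome 11 in this contrast was -0.41, and Notum, Tcf7 and Znrf3 are on it. Axin2 is on it too, and its call was lost with RLE size factors (0.10, edgeR adjusted p 0.0988), with DESeq2 (0.10, adjusted p 0.175), with no filter (0.12, edgeR adjusted p 0.139) and with scaling without chromosome 11 (0.11, edgeR adjusted p 0.0652).

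Per kilobase of exon, which allows genes to be compared, Cdx1 had the highest group mean of the target genes in B6 (22.1 CPM per kb ± 1.83, SD, n = 3), B6-13D2 (24.8 ± 1.46) and D2 (16.7 ± 0.354), where the libraries of Cdx1 and Tcf7 overlapped on this scale. In D2-13B6 it had 9.19 CPM per kb ± 0.696, below Notum (23.5 ± 0.728), Tcf7 (19.4 ± 0.226) and Axin2 (14.8 ± 0.382). Rnf43 ranked last in every group, between 0.280 and 0.440 CPM per kb. Its relative Znrf3 had 3.07 to 5.23 CPM per kb. Between the TCF/LEF genes, Tcf7 exceeded Lef1 in every group, with 18.2 against 0.924 CPM per kb in B6 and 19.4 against 3.91 in D2-13B6.

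The genes upstream of these targets were taken from a list of 83 Wnt pathway components, of which 75 were tested. Between the parental lines 30 were higher in D2 and 16 were lower (median 0.17, against 0.012 for all genes), beside 29.8% and 30.3% of all genes. In B6-13D2 against B6, 15 were higher and 41 lower (median -0.37, against -0.035), beside 25.4% and 32.9%. In D2-13B6 against D2, 11 were higher and 34 lower (median -0.14, against 0), beside 27.6% and 29.7%. The totals of 46, 56 and 45 called of 75 stand beside 60.0%, 58.3% and 57.3% of all genes. Over both congenic comparisons, 29 of 75 were lower in both, 6 higher in both and 6 of opposite signs, beside 19.8%, 12.4% and 7.33% of all genes. The fibroblast or feeder markers moved the same way, with 7 of 8 lower in both, and their part was not tested.

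Among the Wnt ligands, 10 of 15 tested were lower in B6-13D2 than in B6 and 1, Wnt6 (0.84, SE 0.233), was higher, beside 32.9% and 25.4% of all genes. Wnt5a, a ligand known mainly for signalling that bypasses beta-catenin, fell by 1.88 there (SE 0.0813, edgeR adjusted p 1.16e-12), as did its coreceptor Ror1 by 1.80 (SE 0.220). Wnt4 was higher in D2 than in B6 by 1.22 (SE 0.270), and it fell by 1.21 in D2-13B6 against D2 (SE 0.257). Wnt7b was lower in D2 than in B6 (-1.70, SE 0.268) and higher in D2-13B6 than in D2 (0.89, SE 0.274). Of the R-spondins and their Lgr receptors, 3 of 6 tested fell and 1 rose in B6-13D2 against B6, beside the same shares of all genes. Lgr5, a receptor for R-spondins and itself a target gene, was higher in D2 by 1.20 (SE 0.264) and lower in B6-13D2 (-2.76, SE 0.386) and D2-13B6 (-1.55, SE 0.259) than in their background lines. Its level was low, with group means of 1.62 CPM in B6 and 0.237 in B6-13D2, where all libraries together held 20 counts. Rspo2, a ligand that counteracts Rnf43 and Znrf3, fell by 1.20 in D2-13B6 against D2 (SE 0.107). Of 15 receptors and coreceptors, 9 were lower and 4 higher in B6-13D2 against B6, beside 32.9% and 25.4% of all genes. In D2-13B6 against D2, 9 of 15 were lower and 1 was higher, beside 29.7% and 27.6%. Fzd9, a Frizzled receptor, was higher in D2 than in B6 (1.19, SE 0.116) and in B6-13D2 than in B6 (0.80, SE 0.120). Of the 12 extracellular inhibitors tested, 5 were higher and 2 lower in D2 than in B6, beside 29.8% and 30.3% of all genes. In B6-13D2 against B6, 3 were higher and 6 lower, beside the 25.4% and 32.9% above. The pair lower in D2 included Sfrp1, which binds Wnt ligands (-1.99, SE 0.0418). The other, Kremen2, a receptor for Dickkopf inhibitors, was lower in D2 than in B6 (-2.26, SE 0.276) and higher in B6-13D2 than in B6 (1.35, SE 0.197).

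In the intracellular core, the destruction complex had 2 of 6 genes higher and 2 lower in each congenic comparison, and beta-catenin with its nuclear partners had 3 of 12 higher and 5 lower in B6-13D2 and 2 higher and 4 lower in D2-13B6. Over all genes 58.3% and 57.3% were called in these comparisons, so the totals of these small groups lay near the background. Ctnnb1, which encodes beta-catenin, had group means of 740 CPM ± 21.5 (SD, n = 3) in B6-13D2, 772 ± 27.1 in B6, 796 ± 23.6 in D2 and 842 ± 6.23 in D2-13B6, the order of Axin2. It was not called between the parental lines or between a congenic line and its background line, with log2 fold changes of 0.044 between the parental lines, -0.061 for B6-13D2 and 0.08 for D2-13B6 (edgeR adjusted p 0.285, 0.143 and 0.0564). It was called in the remaining pairs, at 0.19 in D2-13B6 against B6-13D2 (edgeR adjusted p 0.000116), 0.12 in D2-13B6 against B6 (edgeR adjusted p 0.00497) and -0.11 in B6-13D2 against D2 (edgeR adjusted p 0.011). Gsk3b, a kinase that CHIR99021 inhibits, fell by 0.40 in B6-13D2 against B6 (SE 0.0358, edgeR adjusted p 2.3e-08) and by 0.46 in D2-13B6 against D2 (SE 0.0353, edgeR adjusted p 3.59e-09). Its paralog Gsk3a rose by 0.10 in B6-13D2 and fell by 0.15 in D2-13B6. The scaffold Axin1 rose by 0.21 in B6-13D2 and by 0.12 in D2-13B6, and Apc fell by 0.15 in B6-13D2 and by 0.19 in D2 against B6. Dvl2, a Dishevelled gene on chromosome 11, rose by 0.55 in B6-13D2 (SE 0.0437, edgeR adjusted p 5.41e-09) and by 0.61 in D2-13B6 (SE 0.0439, edgeR adjusted p 1.64e-09), where the median of its chromosome was 0.39. Tcf7l1, the TCF that represses targets in embryonic stem cells, rose by 0.14 in B6-13D2 (SE 0.0448, edgeR adjusted p 0.0126) and by 0.11 in D2-13B6 (SE 0.0442, edgeR adjusted p 0.0348). Tcf7l2 was lower in all 3, with log2 fold changes of -0.65 for D2-13B6, -0.55 for B6-13D2 and -0.46 for D2, while Tcf7 rose in both congenic comparisons.

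**Figure D4:**
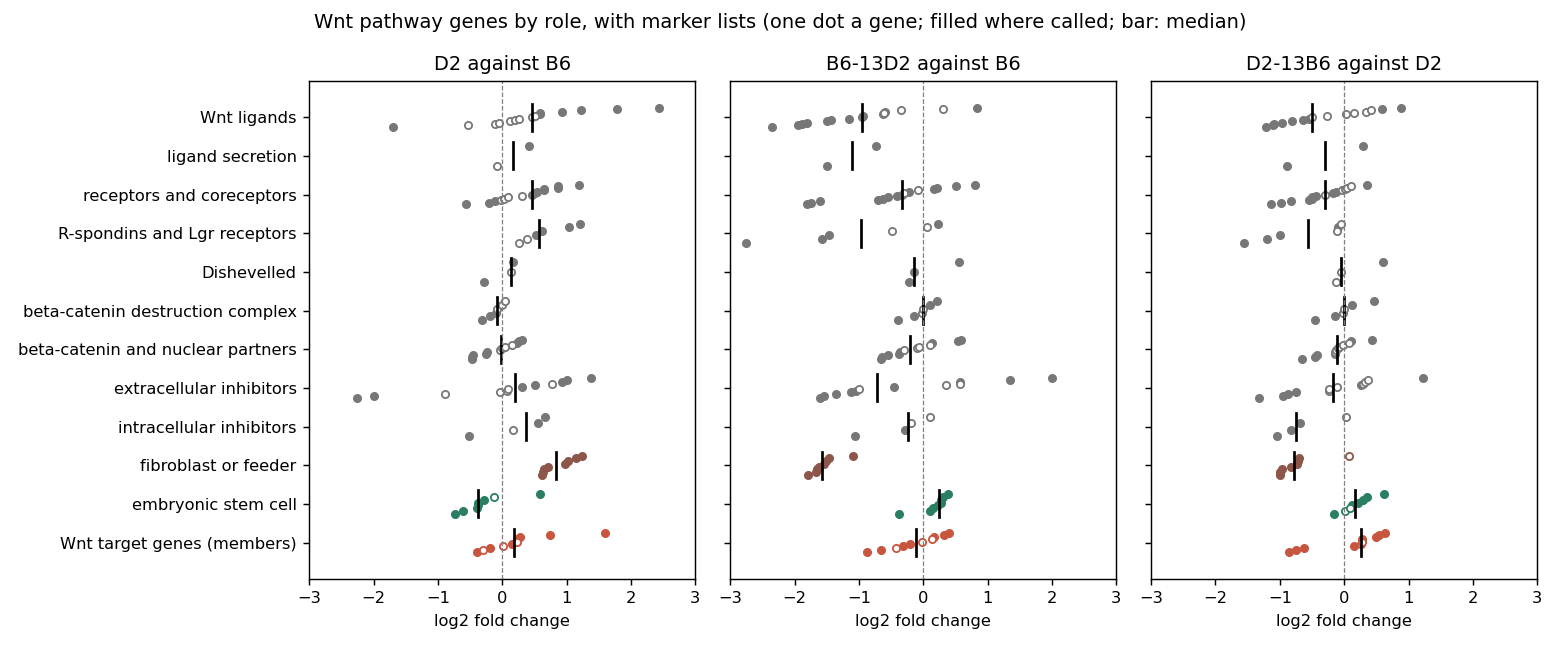
Log2 fold change (horizontal axis) of Wnt pathway genes by role, of 2 marker lists and of the 10 target genes, 1 dot a gene (filled where called) with a bar at each median, in 3 comparisons. Wnt ligands have a median of -0.95 and fibroblast or feeder markers one of -1.58 in B6-13D2 against B6, while the target genes have one of -0.11.

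Genes that Tcf7l1 represses in embryonic stem cells (Esrrb, Klf2, Tfcp2l1, Nanog and Nr5a2) are also pluripotency genes. All 5 were lower in D2 than in B6, led by Tfcp2l1 (-0.98, SE 0.0335, edgeR adjusted p 1.01e-13), and all 5 were higher in B6-13D2 than in B6, by 0.10 to 0.34, beside 30.3% and 25.4% of all genes. In D2-13B6 against D2, 4 were higher, led by Nanog (0.36, SE 0.0401), and Nr5a2 was lower (-0.12, SE 0.0455), beside 27.6% and 29.7%. The embryonic stem cell markers, which share Nanog and Esrrb with that list, had medians of -0.38, 0.25 and 0.17 in the same comparisons. Fibroblast or feeder markers had medians of 0.84, -1.58 and -0.77, and their part in these differences was not tested. Of 12 other Wnt targets 10 were tested, and 8, 8 and 6 were called (5 higher and 3 lower, 2 higher and 6 lower, 3 higher and 3 lower), beside 60.0%, 58.3% and 57.3% of all genes.

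Markers of other cell types were low beside those of fibroblasts and embryonic stem cells. Summed primitive endoderm markers were 32.1 to 33.3 CPM in B6 and 40.7 to 43.4 in D2, and 15.0 to 15.6 in B6-13D2 and 36.3 to 38.1 in D2-13B6. Summed trophoblast markers, which include Cdx2, were 70.8 to 75.7 CPM in B6-13D2 and 22.3 to 23.5 in D2-13B6. The largest part of that sum was Tfap2c, with group means of 66.0 CPM in B6-13D2 and 11.8 in D2-13B6. Cdx2 went the other way, with 0.898 CPM in B6-13D2 and 4.49 in D2-13B6. Of the 4 trophoblast markers tested, 2 were higher and 2 lower in D2-13B6 than in B6-13D2, beside 38.4% and 31.8% of all genes. Summed neuroectoderm markers lay between 38.3 and 65.7 CPM over all libraries. None of these markers was at 0 in a whole group, and their part in the target genes' differences was not tested.

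The genes whose pattern was most like that of Axin2 over the 12 libraries were searched among 14127 others with a mean level of at least 1 CPM. The highest Pearson r of log2 CPM were 0.991 for G430049J08Rik (chromosome 18), 0.989 for Ddhd2 (chromosome 8), 0.989 for Nploc4 (chromosome 11), 0.988 for Enah (chromosome 1) and 0.983 for Tmtc3 (chromosome 10). Counts of G430049J08Rik were not whole, so reads it shares with other loci make its level uncertain. Outside chromosome 11 the fifth was Adam17 at 0.981. The points come from 4 groups, so the values describe group means more than 12 separate points. Ddhd2 had group means of 23.0 CPM in B6-13D2, 35.5 in D2, 35.8 in B6 and 46.5 in D2-13B6, the order of Axin2 but for its parental pair. None of the other 9 target genes was eligible for this search.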

How the data were processed

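The authors deposited expected counts (estimated read counts, not necessarily whole) per Ensembl gene ID and library, made with EMASE per the file's title, which shares out reads with more than 1 mapping place. Of all values 88.1% were whole to within 1e-06. Bowtie 1.0.0, edgeR 3.34.1 and build mm10 stand in the submitters' processing notes; their roles, the annotation release and use of strand are not stated. Of 43346 IDs, 42462 matched GENCODE M21, and 884, with 0.361% of reads, did not.

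Rounded counts were fitted in edgeR 4.0.16 (R 4.3.3) with 4 group means after filterByExpr at a minimum count of 10 and TMM scaling (common dispersion 0.001834), with Benjamini-Hochberg adjustment over 17148 genes. SE is the absolute log2 fold change over the square root of F. The procedure was tested on simulated data for D2 against B6. There edgeR recovered 56 of 100 log2 changes of 0.5 and 96 of 100 of size 1, with 13 false calls among 16765 genes. The simulation had a wider spread than these data and no chromosome-wide shift, so it does not measure the errors of the comparisons here. No pair of libraries agreed within sampling noise.

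The target genes, lists and tests were chosen with earlier results of these data known. Besides all 10 target genes and 7 core components, pathway genes were named by rule: per comparison the 3 highest and 3 lowest among called genes whose groups did not overlap and whose mean log2 CPM was 0 or more; other lists gave 1 each. Alternatives were DESeq2 1.42.0, RLE size factors, no filter, a filter at 1 CPM, a replicate block, fewer libraries and, chosen after seeing the data, scaling without chromosome 11.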

Additional observations from a re-analysis of the deposited data

Results flagged for a closer look

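For 7 of 10 target genes, beside 64.5% of all tested genes, a difference between the backgrounds was called by the edgeR test of the difference itself (the D2-allele effect on the D2 background minus that on the B6 background). This contrast cannot be told apart from anything the congenic lines share, or from a difference between their segments, which the labels bound by different markers. The difference was 0.16 for Axin2, -0.47 for Lef1, -0.60 for Tcf7, 1.18 for Nkd1, 0.69 for Cdx1, -0.42 for Notum and -0.67 for Znrf3, on the log2 scale. The edgeR adjusted p was 0.00964 for Axin2, 0.000278 for Lef1, 2.02e-07 for Tcf7, 0.000351 for Nkd1, 4.5e-06 for Cdx1, 0.000164 for Notum and 5.72e-07 for Znrf3. The call held under every alternative for Lef1, Tcf7, Nkd1, Cdx1, Notum and Znrf3, and not for Axin2. Notum differed from the chromosome 11 median of this contrast by -0.012, Tcf7 by -0.19 and Znrf3 by -0.26, whereas Axin2 lay 0.57 above it. Groups of 3 libraries were not searched for outlying samples.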

How the results depend on the processing

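Of 70 differences (10 target genes in 7 comparisons), 53 were called and 45 of those were called under every alternative run; none of the 53 changed sign. The total of called target genes in each comparison, and of called pathway genes where alternatives were counted, stayed within 1.5 times. Counts of these genes by direction, by role or over both congenic comparisons were not compared under the alternatives. Leaving out each library in turn, 5 to 7 target genes were called in D2 against B6, 6 to 8 in B6-13D2 against B6, 8 to 9 in D2-13B6 against D2, 8 to 10 between the congenic lines and 7 to 8 for the difference between backgrounds. Signs changed for 4 differences near 0, none of them called. Axin2 in D2 against B6 ranged from -0.0014 (without B6 replicate 3) to 0.032 over the fits without single libraries. Lef1 in B6-13D2 against B6 was 0.048 with RLE size factors, 0.048 with DESeq2, 0.0043 with no filter, 0.023 with the 1 CPM filter, 0.021 with only the libraries compared, 0.0012 with scaling without chromosome 11, and -0.054 to 0.044 without single libraries. Nkd1 in D2-13B6 against B6 was 0.039 with RLE, 0.037 with DESeq2, 0.0035 with no filter, 0.051 with only the libraries compared, 0.022 with scaling without chromosome 11, and -0.21 to 0.15 without single libraries. Rnf43 in D2-13B6 against B6 was 0.018 with RLE, 0.019 with DESeq2, 0.028 with only the libraries compared, 0.0011 with scaling without chromosome 11 and -0.19 to 0.16 without single libraries. The cause was not tested. Without single libraries, T in D2-13B6 against B6 lost its call in 4 of 12 fits (0.35 to 0.46) and Rnf43 between the congenic lines without D2-13B6 replicate 2 (0.47).

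Replicate numbers did not pair the libraries: over 18 pairs the mean correlation of deviations was -0.00884 (-0.149 to 0.087), and 5 of 12 libraries correlated best with their own number. With the replicate block 69 of 70 differences kept their side of the threshold, and Nkd1 between the congenic lines lost it (0.40, edgeR adjusted p 0.0533). The pathway list had 47, 57 and 44 genes called with the block, against 46, 56 and 45. Genes with few counts (Nkd1, T and Rnf43) had the widest errors, so a missing call in them does not show that a difference was absent. The part of depth in their missing calls was not tested. The share of called genes that was higher in B6-13D2 than in B6 was 43.5%, and 52.0% with RLE size factors; it went from 49.6% to 56.7% in D2 against B6, from 41.5% to 49.3% in D2-13B6 against B6, and from 51.8% to 47.1% above 0 for the difference between backgrounds. In D2-13B6 against D2 it was 48.2%, 48.4% with RLE, 53.4% with scaling without chromosome 11, 50.8% with no filter and 42.2% with the 1 CPM filter.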
